A study of Homo sapiens with 132 samples.

Results

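The addition of afatinib to trastuzumab was examined after 4 h in NCI-N87 cells, by setting the libraries treated with trastuzumab plus afatinib (Tra+Afa, 3 replicates) against those treated with trastuzumab alone (Tra, 3 replicates). These 6 libraries were taken from the 132 RNA sequencing libraries of the study by cell line, time point and treatment, without use of any expression value. NCI-N87 is an established gastric cancer cell line from a metastatic site that carries an amplified HER2 gene. Both groups received trastuzumab at 5 μg/ml, and the Tra+Afa cells also received afatinib at 0.5 μM. The other NCI-N87 libraries of 4 h were untreated or treated with afatinib alone (Afa), again with 3 replicates each. The methods list the afatinib solvent DMSO among the treatments, but none of the 132 libraries is labelled as solvent-treated. In these libraries afatinib and its solvent therefore cannot be told apart. The paper reports DMSO as a control in its qPCR of selected genes. It also states that DMSO had minor effects beside afatinib in earlier western blots. The labels number the replicates but do not say that they came from separate cultures, so p-values measure the spread between these libraries, which may be technical.

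Trastuzumab is an antibody against the outer domain of HER2 (gene ERBB2). Afatinib is a small molecule that binds the kinase domains of EGFR, HER2 and HER4 irreversibly. Active receptors of this family signal through the RAS-ERK cascade, which switches on immediate early transcription factors and its own feedback inhibitors, and through the PI3K-AKT pathway, which keeps FOXO transcription factors out of the nucleus.

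The deposited values were counts per gene. The 6 libraries held between 44402645 and 63414173 counts, so that 3 counts, taken as the smallest level a library can show, correspond to 0.0473 to 0.0676 CPM (counts scaled to the size of the library), a limit that covers counting error only. Levels of single genes are given as CPM after TMM normalization, in the order of replicates 1, 2 and 3. Of 14 epithelial marker genes, 12 had a mean above 1 CPM in both groups, with a summed level of 19900 to 26200 CPM in the Tra and 17400 to 24200 in the Tra+Afa libraries. CEACAM6 was listed at 0. The summed level of 7 leukocyte markers was 4.68 to 5.83 CPM in the Tra and 4.77 to 6.58 in the Tra+Afa libraries, with 1 gene (LYZ) above 1 CPM and CD68 listed at 0 in both groups. The 8 stromal and endothelial markers summed to 14.9 to 18.7 and 19.4 to 19.8 CPM. In all 12 NCI-N87 libraries of 4 h, 2563 of 19674 protein-coding genes (13%) were listed at 0. CDK2, a kinase that dividing cells use, is among them, as are DUSP1, JUNB, FOSB and BAK1, so a listed 0 is not read here as absent expression.

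Within 4 h of the addition of afatinib, transcripts fell for 11 of 22 tested ERK feedback inhibitors and 10 of 22 immediate early genes. Also lower were 4 of 7 chemokines and 4 of 11 EGFR ligands and neuregulins. Transcripts rose for the cell death genes BMF and TNFSF10, the cell cycle inhibitor CDKN1C and the receptor ERBB3. The lists and their members were chosen with earlier results of these data known, so such counts are a description. Genes were called regulated at an adjusted p (Benjamini-Hochberg over all genes) below 0.05 in edgeR's quasi-likelihood test and an absolute log2 fold change (log2FC) above 1. Of 18014 genes tested, 518 were higher (2.88%) and 359 lower (1.99%). The sign was the same in all 3 same-numbered pairs of libraries for 866 of these 877 genes. The levels of the 2 groups did not overlap for 779 of them. Over all genes tested, levels did not overlap for 2775 genes that were higher (15.4%) and 2836 that were lower (15.7%). By adjusted p alone, 3067 genes were higher (17%) and 3309 lower (18.4%), so 5499 genes had a difference past the test that was at most 1 on the log2 scale. With scaling by library size alone the split by adjusted p alone moved from 48.1% to 61.4% higher and the median log2FC over all genes from 0.03 to 0.10.

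The genes that fell were in general more highly expressed than those that rose. The median of the mean log2 CPM was 2.53 for the lower genes, -0.45 for the higher genes and 3.44 for all genes tested. A mean log2 CPM above 1 was reached by 236 of the lower (65.7%) and 166 of the higher genes (32%). Protein-coding genes made up 70.2% of the lower, 62.2% of the higher and 76.7% of all tested genes. The higher genes included 77 lincRNA and 61 antisense genes, the lower genes 40 and 29. A difference above 4-fold was seen in 62 higher and 45 lower genes, and above 8-fold in 14 and 12. When genes with a mean log2 CPM of at most 1 were left out before the test, 177 genes were higher and 212 lower. Without replicate 3, 337 genes were higher and 290 lower.

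**Figure D1:**
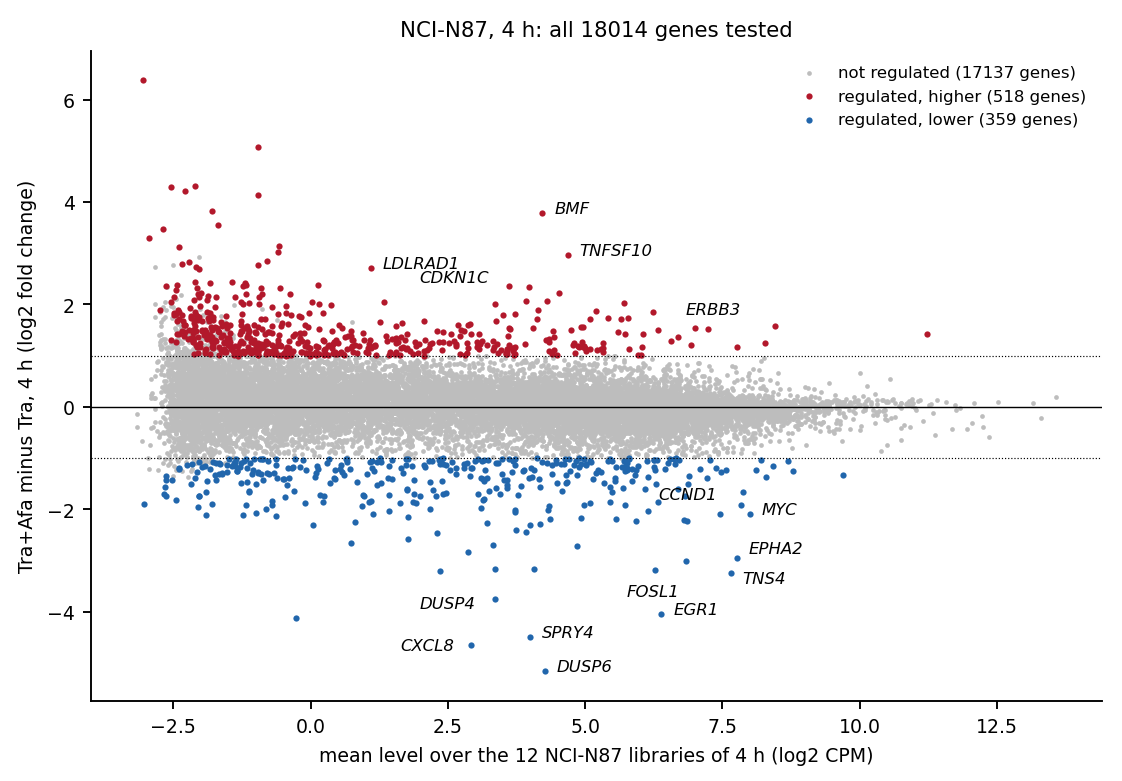
Each point is a gene, with its mean level in log2 CPM over the 12 NCI-N87 libraries of 4 h on the x axis and the log2 fold change of Tra+Afa against Tra on the y axis (dotted lines at -1 and 1). The 359 lower genes (blue) reach -5.16 for DUSP6, and many of the 518 higher genes (red) lie at low levels.

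The largest fall among genes with a mean log2 CPM above 1 was that of DUSP6 (ENSG00000139318, chr12:89347232-89353271, GRCh38), a phosphatase that inactivates ERK. Its level was 26.4, 50.8 and 41.3 CPM in the Tra libraries and 1.25, 1.05 and 1.06 CPM in the Tra+Afa libraries. The groups were far apart in all pairs, with a log2FC of -5.16 ± 0.24 (SE) and an adjusted p of 5.06e-09 in edgeR's test, a 35.8-fold lower level. SPRY4, a Sprouty protein that restrains RAS-ERK signalling (chr5:142310427-142326455), stood at 29, 37.7 and 34.8 CPM with Tra and at 1.57, 1.68 and 1.28 CPM with Tra+Afa (log2FC -4.50 ± 0.11). The nuclear MAP kinase phosphatase DUSP4 stood at 24.7, 18.7 and 21.8 against 1.85, 1.65 and 1.32 CPM (log2FC -3.75 ± 0.12). These 3 genes each fell in every pair. Genes antisense to DUSP6 and SPRY4 overlap them, and the strand setting of the authors' counting is not given in the sources used here.

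Of 22 tested ERK feedback inhibitors, 11 fell and 2 rose, with a median log2FC of -0.93, against 0.03 over all genes. Besides the genes above, DUSP5 fell by 2.72, DUSP2 by 2.31, SPRY1 by 1.86, SPRY2 by 1.74, DUSP7 by 1.57, SPRED2 by 1.56 and SPRED1 by 1.44 on the log2 scale. ERRFI1, an inhibitor of the EGFR kinase itself, fell from 68.4, 80.9 and 74 to 23.2, 21.9 and 25.5 CPM (log2FC -1.66). The members that rose were SPRY3 (log2FC 1.08) and the ubiquitin ligase CBLB (1.24). DUSP16, DUSP9, CBL and LRIG1 had log2FC between -0.25 and 0.03 with adjusted p between 0.0605 and 0.982.

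EGR1, a zinc finger transcription factor of the immediate early response (chr5:138465490-138469315), stood at 81.7, 263 and 105 CPM with Tra and at 9.52, 7.2 and 7.96 CPM with Tra+Afa. The Tra libraries differed among themselves, replicate 2 being the highest, and all lay above the Tra+Afa libraries (log2FC -4.04 ± 0.36, adjusted p = 1.58e-06 in edgeR's test). The AP-1 subunit FOSL1 was more even, at 155, 159 and 150 against 21.9, 13.9 and 15.9 CPM (log2FC -3.19). FOS, another AP-1 subunit, stood at 22.5, 41 and 25 against 4.23, 2.17 and 3.53 CPM (log2FC -3.16). MYC, a driver of growth and ribosome production, fell from 431, 406 and 466 to 97.4, 95.1 and 111 CPM (log2FC -2.10 ± 0.06). In all, 10 of 22 immediate early genes were lower and 0 higher at a median of -0.64, among them MAFF (-2.18), KLF6 (-1.51), IER3 (-1.34), IER2 (-1.26) and, at low levels, EGR2 (-1.30) and EGR4 (-1.13). Among 14 ETS transcription factors ETV5 fell (-1.46) and ELF3 rose (1.21).

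Chemokines fell as well. CXCL8 (interleukin-8, chr4:73740506-73743716), which attracts neutrophils, stood at 14.4, 19.7 and 17.1 CPM with Tra and at 0.739, 0.58 and 0.759 CPM with Tra+Afa, a 25.3-fold lower level (log2FC -4.66 ± 0.23, adjusted p = 8.64e-09 in edgeR's test). CXCL3 (-1.88), CXCL1 (-1.87) and CXCL2 (-1.74) also fell, which makes 4 of 7 tested chemokines lower and 0 higher. CXCL5, the most highly expressed of them, was at 123, 145 and 196 against 72.7, 94.3 and 105 CPM, a log2FC of -0.76 (adjusted p = 2.30e-06) that stayed under the fold threshold. Among cytokines, LIF fell from 164, 222 and 200 to 34.4, 48.2 and 44 CPM (log2FC -2.21). CSF2, the granulocyte-macrophage growth factor, was low, at 1.62, 1.9 and 1.21 CPM with Tra, and it fell to 0.162, 0.0763 and 0.0434 CPM, the last value being under the level of 3 counts. Of 17 interleukins and related cytokines 4 fell and 3 rose. Of 15 NF-kB subunits and feedback genes 2 fell, IRAK2 (-1.24) and TNFAIP3 (-1.09).

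**Figure D2:**
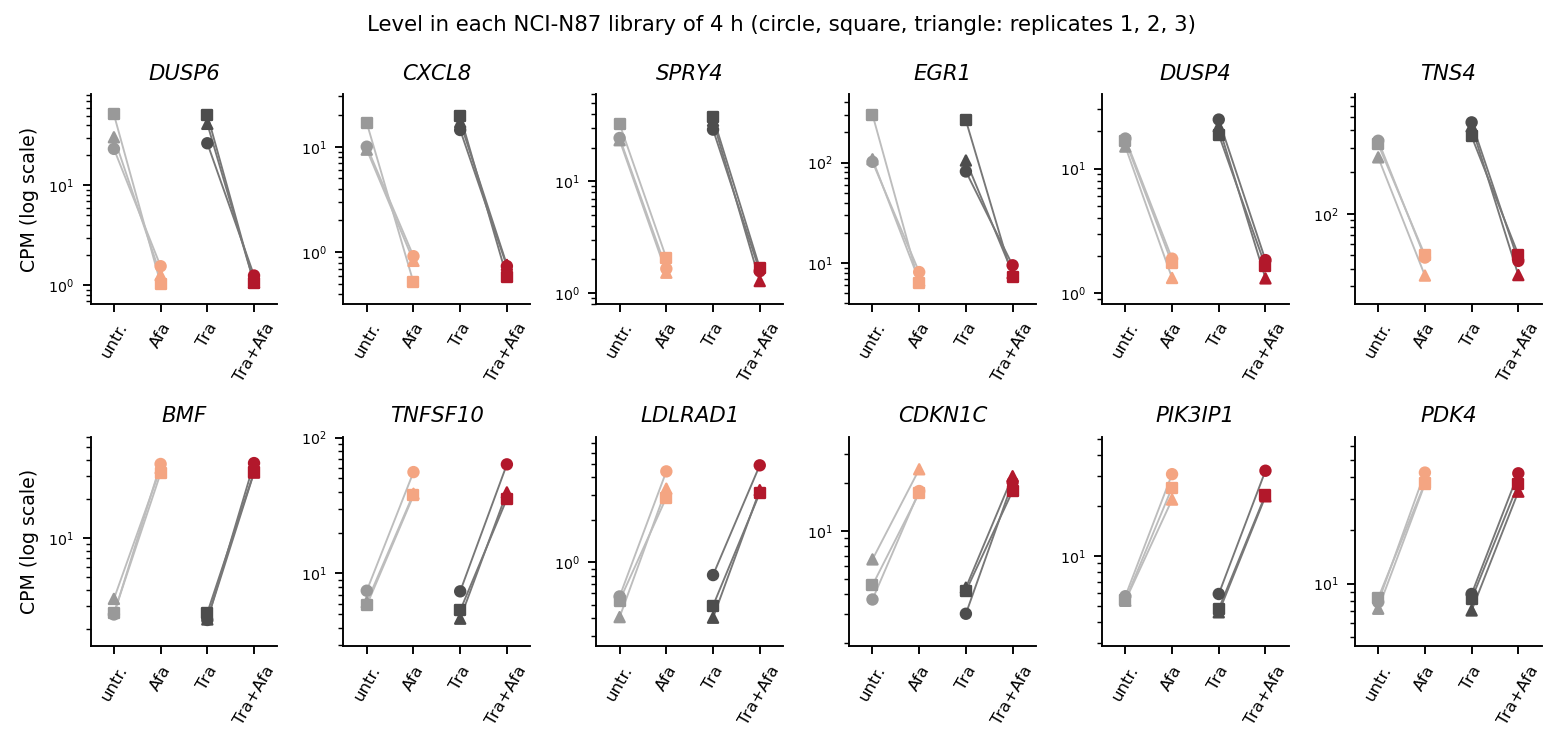
CPM (log scale) of 6 falling and 6 rising genes in each of the 12 NCI-N87 libraries of 4 h, with lines joining the same-numbered replicates without and with afatinib. In every panel the 3 Tra+Afa libraries lie clear of the 3 Tra libraries, and the Afa and untreated libraries are apart in the same direction.

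Sequence upstream of the start of 4 of these genes is shown because their transcripts moved most while a RefSeq promoter entry outside exons was at hand. It was taken from RefSeq (GRCh38.p14), positions are counted from the start of transcription, and matches to 4 motifs searched on both strands are in capitals. The promoter of EGR1 (chr5:138465229-138465478, + strand, -250 to -1) held 2 CArG boxes, the core of the serum response element, at -105 to -96 and -83 to -74. Such a box was found in 1.16% of the 35116 promoters searched and in 1.05% of those of tested genes.
EGR1: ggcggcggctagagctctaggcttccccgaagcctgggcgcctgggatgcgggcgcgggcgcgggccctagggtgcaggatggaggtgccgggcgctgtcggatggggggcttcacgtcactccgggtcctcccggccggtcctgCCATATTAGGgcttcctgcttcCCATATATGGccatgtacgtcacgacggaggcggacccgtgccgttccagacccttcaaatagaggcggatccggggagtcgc
The promoter of CXCL8 (chr4:73740319-73740505, + strand, -250 to -64) held an AP-1 motif, searched as TGANTCA, at -137 to -131. This motif is present in 6.57% of all promoters and in 4.53% of those of tested genes.
CXCL8: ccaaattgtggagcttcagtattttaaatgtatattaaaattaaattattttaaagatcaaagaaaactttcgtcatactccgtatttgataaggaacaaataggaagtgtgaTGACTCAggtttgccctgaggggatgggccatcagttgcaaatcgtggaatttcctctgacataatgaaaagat
The promoters of the rising genes BMF (chr15:40108893-40109129, - strand, -250 to -14) and TNFSF10 (chr3:172523508-172523680, - strand, -250 to -78) held none of the CArG, AP-1, CRE and FOXO (GTAAACA) motifs in these windows.
BMF: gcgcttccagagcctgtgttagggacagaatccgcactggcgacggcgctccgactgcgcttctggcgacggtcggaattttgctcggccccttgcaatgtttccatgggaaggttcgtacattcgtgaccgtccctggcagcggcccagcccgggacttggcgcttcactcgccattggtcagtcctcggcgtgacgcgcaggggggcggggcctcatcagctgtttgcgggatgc
TNFSF10: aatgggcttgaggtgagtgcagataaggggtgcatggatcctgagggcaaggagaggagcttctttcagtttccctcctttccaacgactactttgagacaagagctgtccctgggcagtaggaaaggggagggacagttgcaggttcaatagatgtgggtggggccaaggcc
Among the other genes of largest change with an entry, KLHL24, which rose, and ANKRD1, which fell, each held an AP-1 motif. The table had an entry for 51.2% of the rising and 53.5% of the falling genes, too few to compare the groups.

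Of the 4 receptors of the family 1 was called regulated. ERBB3, the partner of HER2 that lacks strong kinase activity, rose from 68.5, 69.7 and 55.5 to 214, 188 and 164 CPM (log2FC 1.54 ± 0.07, adjusted p = 2.01e-09 in edgeR's test). The trastuzumab target ERBB2 was among the most abundant transcripts, at 12700, 11100 and 10500 CPM with Tra and 15300, 12200 and 11600 CPM with Tra+Afa, and these ranges overlapped (log2FC 0.19, adjusted p = 0.093). EGFR was at 231, 199 and 185 against 135, 129 and 106 CPM, lower by adjusted p (1.93e-06) with a log2FC of -0.73. ERBB4 was low, at 0.167, 0.222 and 0.262 CPM with Tra and 0.324, 1.08 and 0.195 CPM with Tra+Afa. Its log2FC of 1.27 did not pass the test (adjusted p = 0.195), was 0.17 without replicate 2, and was called higher in 3 alternatives, among them the fit without replicate 1 (1.37).

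Among 11 EGFR ligands and neuregulins 4 ligands fell. Epiregulin (EREG) stood at 77.3, 98.6 and 75.7 CPM with Tra and at 15.8, 21.6 and 17.2 CPM with Tra+Afa (log2FC -2.20). Amphiregulin (AREG) stood at 32.8, 38.8 and 38.3 against 9.2, 9.2 and 10.4 CPM (-1.94), and HBEGF at 15.7, 14.4 and 12.9 against 6.19, 5.02 and 5.29 CPM (-1.39). TGFA stood at 141, 138 and 140 against 70.2, 72.9 and 67 CPM, and with a log2FC of -1.0 it sat at the threshold, so that 8 of the alternatives did not call it. The neuregulin NRG4 was higher by adjusted p (2.11e-07) at a log2FC of 0.84. NRG3 was called higher (1.67, adjusted p = 0.0247), but this rested on replicate 2 at 1.02 CPM, the other Tra+Afa libraries being at 0.162 and 0.0434 CPM, and DESeq2 did not call it.

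The largest rise at a mean log2 CPM above 1 was that of BMF (ENSG00000104081, chr15:40087890-40108892), a BH3-only protein that promotes apoptosis by binding BCL2-type survival proteins. BMF stood at 2.34, 2.66 and 2.36 CPM in the Tra libraries and at 37.9, 32.2 and 32 CPM in the Tra+Afa libraries, a 13.7-fold higher level (log2FC 3.78 ± 0.11, adjusted p = 1.54e-10 in edgeR's test). Another BH3-only gene, BBC3 (PUMA), rose from 6.1, 5.89 and 5.28 to 20, 17.8 and 23.9 CPM (log2FC 1.82). BCL2L11 (BIM) was at 46.9, 48.3 and 48.8 against 82.1, 82.4 and 80.8 CPM, higher by adjusted p (2.29e-07) but under the fold threshold (0.77). The survival genes BCL2L1 (275, 281 and 289 to 121, 122 and 117 CPM, log2FC -1.23) and BCL2 (6.86, 6.35 and 7.09 to 3.44, 3.21 and 2.67 CPM, log2FC -1.12) fell. MCL1, also a survival gene, had a log2FC of -0.91 with an adjusted p of 7.45e-07. The BCL2 family of 14 tested genes thus held 2 that rose and 2 that fell, and BAX, BOK, BAD and HRK had adjusted p between 0.704 and 0.934. By adjusted p alone 3 members were higher and 5 lower, beside 17% higher and 18.4% lower over all genes tested. The lower members not named above were among PMAIP1, BIK, BID and BCL2L2, so genes that promote cell death were not all higher. A gene antisense to BMF overlaps it. Of the other genes of largest rise, TNFSF10, PIK3IP1, GBP2 and YPEL1 are also overlapped by annotated genes. GBP7 over GBP2 and RN7SL280P over YPEL1 lie on the same strand as the gene they overlap.

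TNFSF10, which encodes the death receptor ligand TRAIL, stood at 7.39, 5.35 and 4.65 CPM with Tra and at 63.5, 35.4 and 39.5 CPM with Tra+Afa (log2FC 2.97 ± 0.09). Replicate 1 was the highest in both groups, and the within-pair differences of 3.1, 2.72 and 3.08 on the log2 scale were close to each other. The cell cycle inhibitor CDKN1C (p57) rose from 3.03, 4.2 and 4.41 to 20.1, 17.7 and 21.9 CPM (log2FC 2.35). LDLRAD1, a membrane protein, rose from 0.81, 0.491 and 0.403 to 4.88, 3.1 and 3.25 CPM (2.72). The remaining genes of largest rise were METTL7A (2.07), the interferon-inducible GTPase GBP2 (2.07), YPEL1 (2.05) and KLHL24 (2.03), a substrate adaptor of a ubiquitin ligase.

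Rises were also found among genes of the insulin receptor and PI3K pathway and known FOXO targets. PIK3IP1, an inhibitor of PI3K, rose from 5.91, 4.81 and 4.59 to 32.3, 23.2 and 22.7 CPM (log2FC 2.34). PDK4, which blocks the entry of pyruvate into the citric acid cycle, rose from 8.72, 8.16 and 7.03 to 42.2, 36.8 and 33.2 CPM (2.23). The cyclin CCNG2 stood at 26, 41.2 and 28.1 against 103, 119 and 116 CPM (1.85) and FOXO4 at 9.63, 8.2 and 8 against 19, 15.7 and 17.8 CPM (1.02). These were the 4 of 22 tested members called higher, against 0 called lower, at a median of 0.53. By adjusted p alone 15 members were higher, among them INSR (0.96), IRS1 (0.79) and CDKN1B (0.66), and 2 were lower, PIK3R1 (-0.43) and FOXO3 (-0.41). Over all genes tested the shares by adjusted p alone were 17% higher and 18.4% lower.

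**Figure D3:**
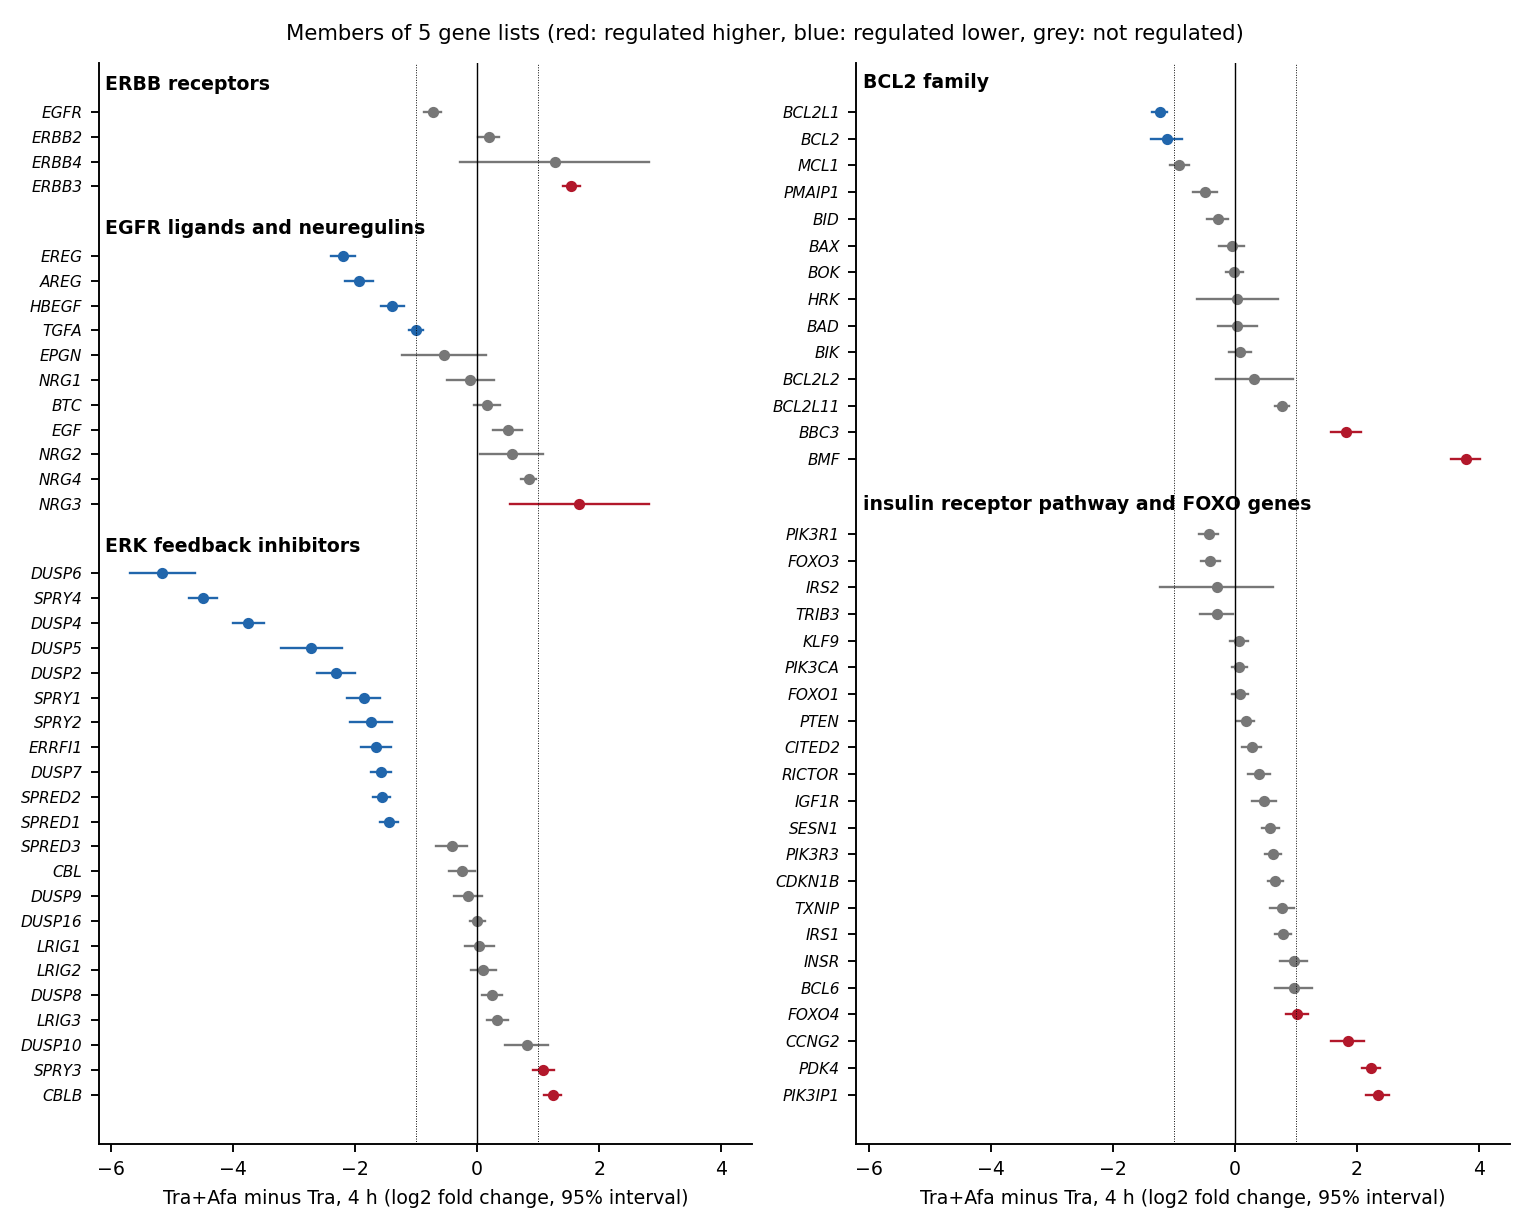
Log2 fold change of Tra+Afa against Tra with its 95% interval for the tested members of 5 gene lists in NCI-N87 cells at 4 h. ERK feedback inhibitors reach from -5.16 to 1.24, and the insulin receptor pathway and FOXO genes from -0.43 to 2.34.

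Of 17 tested G1 cyclins, kinases and inhibitors 3 fell and 2 rose. CCND1 (cyclin D1), which drives entry into the cell cycle, fell from 383, 324 and 403 to 118, 110 and 119 CPM (log2FC -1.67 ± 0.06). E2F3 (-1.13) fell as well, and CCNE1 (-1.0) sat at the threshold and lost its call in 6 alternatives. The inhibitors CDKN2C (1.14) and CDKN1C rose. Of 33 DNA replication genes 0 were regulated, and their log2FC ran from -0.43 to 0.27. By adjusted p alone 3 were higher and 5 lower, beside 17% higher and 18.4% lower over all genes tested. With scaling by library size alone 10 were higher and 3 lower by adjusted p, and without the replicate block 0 and 1. PCNA, for example, was at 240, 159 and 220 against 248, 159 and 216 CPM. Of 24 mitosis genes CDC25C, the phosphatase that activates CDK1, was called higher (18.1, 18.5 and 21.6 to 44.3, 41.4 and 45.6 CPM, log2FC 1.18), and 14 were higher and 0 lower by adjusted p alone. Of 23 ribosome biogenesis genes 21 were lower by adjusted p alone at a median of -0.47, and WDR43 (-1.21) and POLR1B (-1.17) passed the fold threshold.

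Among the remaining lists, the largest falls were those of single genes. EPHA2, an ephrin receptor, was the 1 regulated gene of 14 other receptor tyrosine kinases and fell from 426, 427 and 409 to 64.5, 49 and 50.9 CPM (log2FC -2.95). Tissue factor (F3), which starts blood coagulation, fell from 226, 215 and 247 to 26.3, 33.4 and 26.6 CPM (-3.01), and of 15 urokinase, coagulation and protease genes 4 more fell, THBD, SERPINB2, PLAUR and PLAT. Of these, PLAT lost its call in 6 alternatives and SERPINB2 in 1. The lincRNA AP005233.2 fell from 7.29, 12.8 and 9.01 to 0.901, 1.27 and 0.976 CPM (log2FC -3.21). TNS4, a tensin of focal adhesions, fell from 456, 361 and 427 to 45.7, 50.7 and 36.1 CPM (-3.25). Of 13 genes of a YAP list ANKRD1 (-3.16), F3 and CTGF (-1.40) fell. By adjusted p alone 12 of them were lower, beside 18.4% of all genes tested. The list holds YAP1, WWTR1, TEAD1 and TEAD4 besides YAP target genes. Among 18 gastric and intestinal genes the transcription factor CDX2 (1.16) and MUC20 (1.57) rose. GDF15 (-1.37) and BMP2 (-1.02) fell among 19 genes of the BMP and TGF-beta pathways, and KLF7 rose (1.20) and KLF16 fell (-1.01) among 12 KLF genes. BMP2 and KLF16 sat near the threshold and lost their calls in 6 and 3 alternatives. A list of 14 motility genes that the study chose on MKN1 cells of the same series had 13 members tested, of which 8 fell and 0 rose, among them HAS2 (-2.84), ITGA2 (-1.38) and PTGS2 (-1.12), and this list is not independent of the study's own selection. The epithelial list had 1 higher member, ELF3, and the leukocyte and stromal lists had 0 regulated members of 4 tested genes each, in edgeR's test.

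The effect of adding afatinib to trastuzumab was set beside that of afatinib alone, a pair of contrasts that share no library. With Afa against untreated cells 411 genes were higher (2.28%) and 252 lower (1.4%). Of these 663 genes 481 were regulated in the same direction by Tra+Afa against Tra, which is 72.5% of the former and 54.8% of the latter set, and 1 gene was regulated in the opposite direction. The sign agreed for 833 of the 877 genes regulated by Tra+Afa (95%) and for 82.1% of all tested genes. Across genes with a mean log2 CPM above 1 (n = 11937) the log2FC of the contrasts had a Pearson's r of 0.96, and across all tested genes it was 0.751, both given as a description because genes are not independent. The 44 genes of other sign had a median log2 CPM of -1.92, and LINC00486 was the single gene among them above 1. This gene, picked after its values were seen, was at 0.191, 0.443 and 134 CPM with Tra and 0.231, 6.24 and 207 with Tra+Afa, so that replicate 3 held nearly all of its counts in both groups.

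The difference between the effects of afatinib with and without trastuzumab was tested as an interaction. In edgeR's test 0 genes were regulated and the smallest adjusted p was 0.999. At an unadjusted p below 0.05 there were 655 genes, where 901 would be expected by chance, and DESeq2 also gave 0 regulated genes. At a mean log2 CPM above 1 there were 402 regulated genes, and for 392 of them the 95% interval of the interaction lay within -1 and 1, with a median half-width of 0.298. BMF had an interaction of 0.19 (-0.15 to 0.53), MYC of 0.01 (-0.16 to 0.18), ERBB3 of 0.05 (-0.15 to 0.25) and CXCL8 of -0.68 (-1.49 to 0.12). Unadjusted intervals below 0 were seen for SPRY4 (-0.56, -0.90 to -0.22), TNS4 (-0.49, -0.82 to -0.15) and EREG (-0.39, -0.66 to -0.11), and none passed the adjustment. These genes and the 402 above were regulated in Tra+Afa against Tra, which is an arm of the interaction. That choice favours a larger change in this arm, so their intervals are a description. In edgeR's test 18.8% of the regulated and 3.64% of all tested genes had an unadjusted interaction p below 0.05. Genes regulated by afatinib alone were chosen on Afa against untreated, so their values with and without trastuzumab are a description too. Of all 252 genes lowered by it 164 had a larger fall with trastuzumab, with a median log2FC of -1.41 against -1.32, and at a mean log2 CPM above 1 these were 126 of 159, with medians of -1.51 and -1.33. Of all 411 genes raised by it 147 had a larger rise with trastuzumab, with a median of 1.18 against 1.27, and at a mean log2 CPM above 1 these were 73 of 151, with medians of 1.24 and 1.22.

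**Figure D4:**
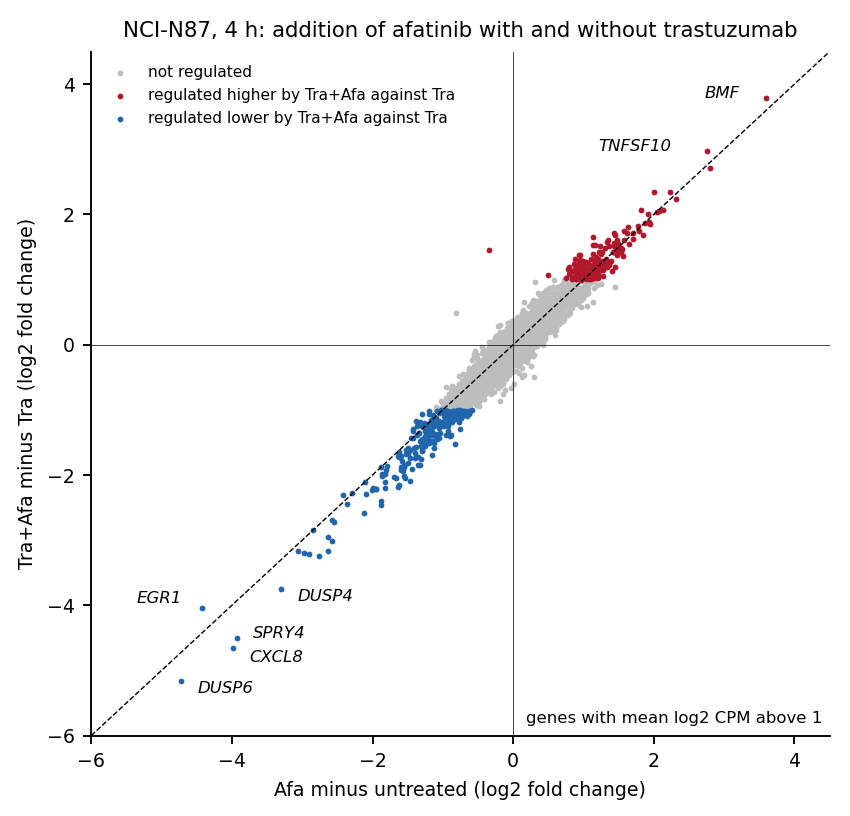
Log2 fold change of Afa against untreated (x axis) and of Tra+Afa against Tra (y axis) in NCI-N87 cells at 4 h, for genes with a mean log2 CPM above 1. Points follow the dashed line of equal change, with a Pearson's r of 0.96 across these genes.

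Trastuzumab was also examined by itself at 4 h. With Tra against untreated cells edgeR gave 0 regulated genes, a smallest adjusted p of 0.141 and 1367 genes at an unadjusted p below 0.05 against 901 expected by chance. With Tra+Afa against Afa it gave 0 regulated genes, a smallest adjusted p of 0.664 and 988 genes at an unadjusted p below 0.05. DESeq2 gave 0 regulated genes in both. Without replicate 1, edgeR gave 4 genes in the comparison of Tra against untreated cells.

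At 24 h most of the early changes were seen again in other libraries, and cell cycle genes had joined them. The 24 h comparison of Tra+Afa against Tra gave 3468 higher (18.2%) and 2099 lower genes (11%) of 19078 tested. With scaling by library size alone the share of higher genes was 79.2% instead of 62.3%, and the median log2FC over all genes was 0.32 instead of 0.04. Of the higher genes of 4 h 369 of the 513 tested at 24 h (71.9%) were regulated the same way at 24 h, and of the lower genes 248 of 359 (69.1%). Of the 5567 genes regulated at 24 h, 617 (11.1%) had been so at 4 h. The 20 genes of largest change at 4 h were all regulated the same way at 24 h. BMF stood at 7.41, 7.3 and 5.88 against 97.9, 98 and 89.7 CPM at 24 h (log2FC 3.80) and DUSP6 at 22.6, 47.8 and 27.9 against 0.832, 0.826 and 1.32 CPM (-4.98). The regulation was opposite at 24 h for 7 genes, of which CHAC1, picked after its values were seen, was the most highly expressed. CHAC1 encodes an enzyme that degrades glutathione, and its log2FC went from 1.42 at 4 h to -1.21 at 24 h.

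The difference between time points was tested in 1 fit, which gave 1779 genes with a higher (9.32%) and 1377 with a lower log2FC at 24 h (7.22%). With scaling by library size alone these were 2518 and 837 genes, a share of 75.1% instead of 56.4% higher. DNA replication genes, of which 0 of 33 were regulated at 4 h, were lower at 24 h in 30 of 33, with a median of -2.03, and the interaction was negative and past the threshold for 30. MCM5, a subunit of the replicative helicase, was at 205, 150 and 179 against 240, 154 and 189 CPM at 4 h. At 24 h the same gene was at 201, 195 and 200 against 22.8, 23.8 and 29 CPM (log2FC -2.99). Of 24 mitosis genes 17 were lower at 24 h (7 with scaling by library size alone), among them PLK1 (log2FC 0.24 at 4 h and -1.15 at 24 h) and CCNB1 (0.06 and -1.14). Of 23 ribosome biogenesis genes 20 were lower at 24 h at a median of -1.53. The ERK feedback inhibitors, by contrast, had 11 lower members at 4 h and 12 at 24 h, and the interaction passed the threshold for 1 of 22. LDLRAD1 (2.72 to 4.78), PIK3IP1 (2.34 to 3.75) and GBP2 (2.07 to 3.21) rose further at 24 h by the interaction, with adjusted p of 3.95e-06, 3e-07 and 3.28e-06.

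**Figure D5:**
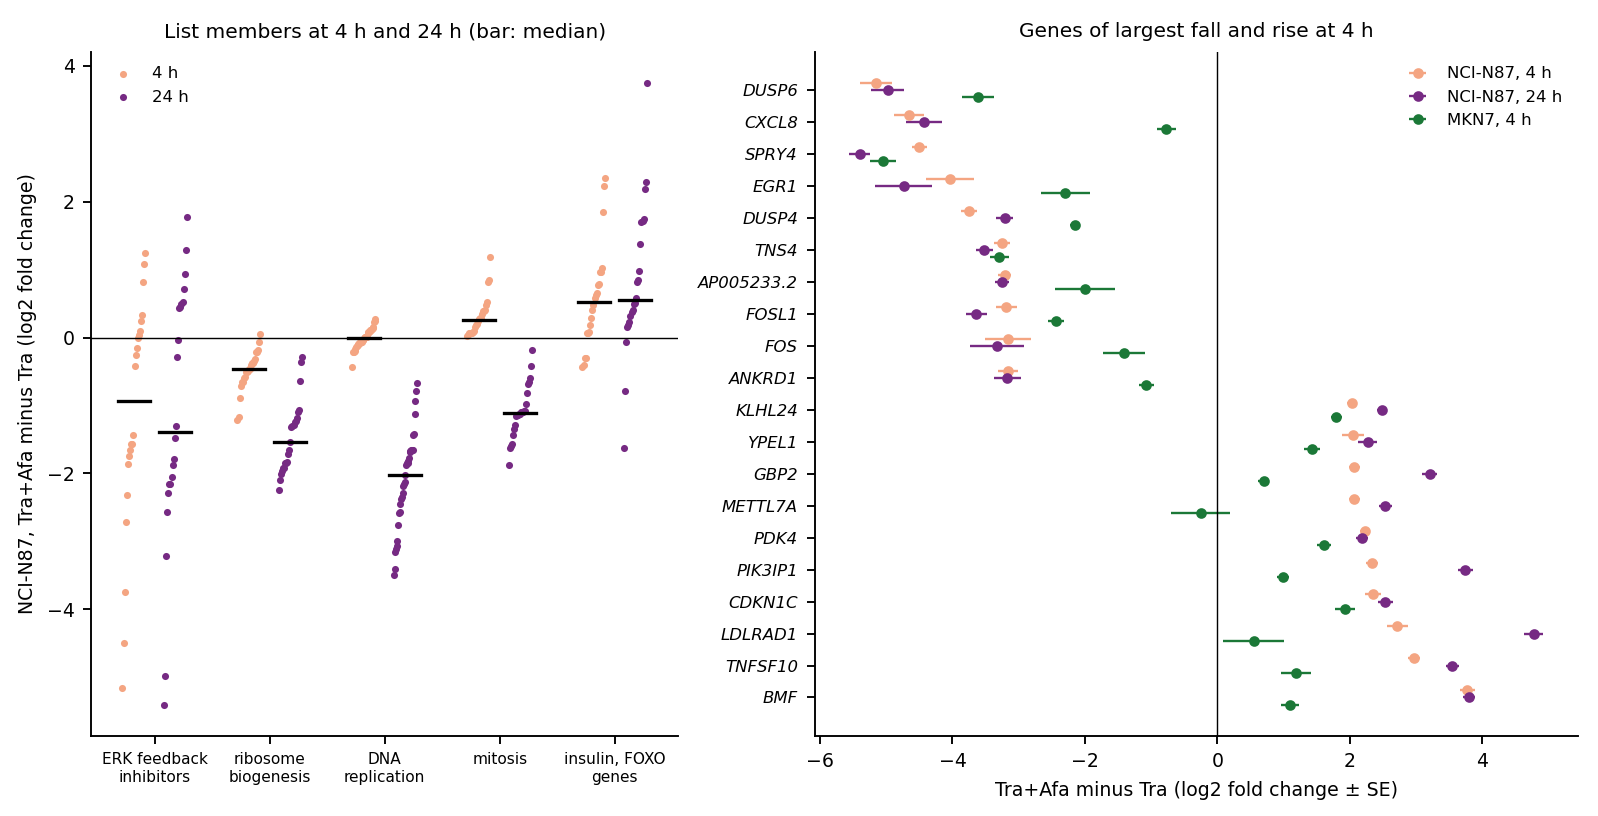
Left, log2 fold change of Tra+Afa against Tra for members of 5 gene lists in NCI-N87 cells at 4 h (orange) and 24 h (purple). Bars mark medians, which for the DNA replication genes is -2.03 at 24 h. Right, the 20 genes of largest change at 4 h, with SE. They are shown in NCI-N87 cells at 4 h and 24 h and in MKN7 cells at 4 h (green). CXCL8 is at -0.77 in MKN7.

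In MKN7, another gastric cancer line with an amplified HER2 gene, which was given the same treatments with 3 replicates each, Tra+Afa against Tra at 4 h gave 395 higher (2.03%) and 250 lower genes (1.29%) of 19439 tested. With scaling by library size alone the share of higher genes was 71.3% instead of 61.2%. Of the genes higher in NCI-N87 91 of 516 tested (17.6%) were higher in MKN7, and of the lower genes 111 of 358 (31%). The regulation was opposite in MKN7 for 3 genes, GRAMD1B, GAL3ST1 and ENSG00000253264, picked after their values were seen. SPRY4 (-5.05 in MKN7), TNS4 (-3.29), DUSP6 (-3.61), FOSL1 (-2.43), MYC (-1.73) and CCND1 (-1.62) fell in both lines. CDKN1C (1.93), KLHL24 (1.80), PDK4 (1.61), CCNG2 (1.6) and YPEL1 (1.43) rose in both. Of the 10 genes of largest fall 9 were regulated in MKN7, and of the 10 of largest rise 6.

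The difference between lines, tested as an interaction in 1 fit, gave 120 genes with a higher (0.617%) and 176 with a lower log2FC in NCI-N87 (0.905%). Without the replicate block this count fell from 296 to 128 genes, without replicate 2 to 185 and without replicate 3 to 170. CXCL8 differed most among the genes named here, at 37.1, 18.7 and 20.8 against 20.8, 11.7 and 12 CPM in MKN7 (log2FC -0.77) and with an interaction of -3.90 ± 0.26. F3 fell in NCI-N87 and stood at 1110, 1040 and 812 against 712, 715 and 542 CPM in MKN7 (log2FC -0.59, interaction -2.43). BMF rose less in MKN7, from 2.78, 4.12 and 3.48 to 7.42, 7.18 and 7.93 CPM (log2FC 1.10, interaction 2.66). ANKRD1 (interaction -2.09), EGR1 (-1.75), FOS (-1.76), DUSP4 (-1.61) and DUSP6 (-1.56) fell further in NCI-N87. PIK3IP1 (1.33) and GBP2 (1.36) rose further in NCI-N87. Positive interactions were also seen for TNFSF10 (1.77), LDLRAD1 (2.16) and METTL7A (2.31), but their mean levels in MKN7 cells given trastuzumab were only 0.427, 0.114 and 0.0889 CPM.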

How the data were processed

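The authors purified mRNA, made directional libraries and sequenced them paired end, and the submitters' processing notes name Trim Galore, STAR and hg38. The counter, its annotation and its strand setting are not given in the sources used here. The deposited values are raw counts per Ensembl gene identifier, 1 file per library. The 65217 identifiers were matched to GENCODE release 29, where 8404 had no entry (0.0483% of all counts). The 37 mitochondrial identifiers had 0 counts.

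The 12 NCI-N87 libraries of 4 h were fitted together with edgeR 4.0.16 in R 4.3.3 (TMM, filterByExpr at its minimum of 10 counts per library and 15 in total, glmQLFit, glmQLFTest), with the replicate number as a block. The 24 h contrasts came from a fit of 24 NCI-N87 libraries and the MKN7 contrasts from a fit of 24 libraries of 4 h, so levels were normalized within each fit. SE is the absolute log2FC over the square root of F, and 95% intervals use its t quantile. Log2 CPM used a prior count of 2. Deviations of same-numbered libraries from their group means correlated in all 18 pairs of NCI-N87 libraries of 4 h (mean Pearson's r 0.467, lowest 0.23), so the numbers, which come from the labels, were taken to pair the libraries. In 12 pairs of replicates 0 were identical.

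Named genes were the 10 largest rises and 10 largest falls among regulated genes that had a name, the same sign in all pairs and an average log2 CPM over 1, at most 5 rises and 5 falls of each other comparison, and the members of 25 gene lists. Of their 448 genes 377 were tested. The result of 1 list is not reported here. Members and lists were chosen with earlier results of these data known. Promoter windows were trimmed to bases outside exons, and DUSP6 and SPRY4 held too few of them to be shown. Alternatives were no replicate block, DESeq2 1.42.0, no filter, unscaled library sizes in place of TMM, a mean log2 CPM above 1, other sets of fitted libraries, adjusted p alone and leaving out each replicate. On simulated data for the comparison of Tra+Afa with Tra (17640 genes), the test called 89.9% of 99 genes with a log2FC of 1.5, 0 of 97 with 0.5 and 2 of 17444 unchanged genes. A call needs an absolute log2FC above 1, so the fold rule largely fixed the result at 0.5. By adjusted p alone 52 of those 97 genes and 11 of the unchanged genes passed. Python 3.11.15 and matplotlib 3.10.9 made the figures.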

Additional observations from a re-analysis of the deposited data

Results flagged for a closer look

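The change at 4 h differed from that at 24 h in NCI-N87 cells for 1779 genes with a higher and 1377 with a lower log2FC at 24 h, by a test of the difference itself. Among the 20 genes of largest change at 4 h, it was higher at 24 h by 2.06 on the log2 scale for LDLRAD1, by 1.4 for PIK3IP1 and by 1.14 for GBP2.

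The change at 4 h also differed between NCI-N87 and MKN7 cells, by the same kind of test, for 120 genes with a higher and 176 with a lower log2FC in NCI-N87. For the genes of largest rise the difference, NCI-N87 minus MKN7, was 2.66 for BMF, 2.31 for METTL7A, 2.16 for LDLRAD1, 1.77 for TNFSF10, 1.36 for GBP2 and 1.33 for PIK3IP1. For those of largest fall it was -3.90 for CXCL8, -2.09 for ANKRD1, -1.76 for FOS, -1.75 for EGR1, -1.61 for DUSP4 and -1.56 for DUSP6. The mean levels of METTL7A, LDLRAD1 and TNFSF10 in MKN7 cells given trastuzumab were only 0.0889, 0.114 and 0.427 CPM. Without the replicate block the test between lines gave 128 genes in place of 296.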

How the results depend on the processing

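The 20 genes of largest change kept their direction and their call in every alternative run for them, and of 953 pairs of a named gene and an alternative 907 kept both, 43 lost the call, 3 gained it and 0 reversed. Calls were lost for 14 genes near the threshold or at low counts, most often TGFA, CCNE1, BMP2, PLAT and NRG3. Without the replicate block 680 genes were regulated by Tra+Afa against Tra, 675 of them among the 877. With DESeq2 there were 795, with library size alone 882, and with no filter 966. Leaving out 1 replicate gave 627 to 999 for Tra+Afa against Tra, 537 to 740 for Afa against untreated, 0 to 4 for Tra against untreated, 2704 to 2879 for the difference between time points, 5278 to 5500 at 24 h, 541 to 550 in MKN7 and 170 to 260 for the difference between lines. Restricting the test to a mean log2 CPM above 1 gave 389 genes for Tra+Afa against Tra, 314 for Afa against untreated, 1659 for the difference between time points, 2741 at 24 h, 171 for the difference between lines and 278 in MKN7. By adjusted p alone these were 6376, 6112, 9400, 13624, 1616 and 6089. The difference between lines gave 128 genes without the replicate block. With no filter the interaction with trastuzumab gave 15 genes, Tra against untreated 6 and Tra+Afa against Afa 1. The cause of these shifts was not tested, other than that fewer genes, fewer libraries or a looser rule entered. With library size alone the near-zero medians of the DNA replication, G1 and gastric lists changed sign. The limits are 3 replicates, a control without solvent and genes listed at 0.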
